A study of Homo sapiens with 6 samples.

Results

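The small-subunit processome is the large nucleolar assembly that forms on newly made ribosomal RNA precursor, where it folds and cuts the part that becomes the RNA of the small ribosomal subunit. It is built from pre-assembled pieces, among them the UTP-A and UTP-B complexes, the U3 small nucleolar ribonucleoprotein and the MPP10 complex, joined by helicases, an acetyltransferase and many single proteins. Growing cells such as carcinoma lines make many ribosomes and express these genes together, and the transcription factor MYC is a known activator of many of them. AATF, the gene whose product Che-1 was targeted here, belongs to the same assembly through a complex with NGDN and NOL10. The genes described, chosen with earlier results of these data known, are 35 processome factors taken from a list of names. Of these, 34 had a probe set paired with them alone and were measured, out of 18417 genes in all, and NOP56, whose probe set also carries another gene, was not analysed here. WDR46 had more than 1 probe set, and its brightest was used.

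The cells were HCT116, an established line from a human colorectal carcinoma, and RNA was taken 48 h after transient siRNA transfection. Control cells received a duplex against GFP, labelled siControl, and the other cells a duplex against Che-1, labelled siChe-1, with 3 whole-transcript Affymetrix arrays of total RNA per group. Whether a group's arrays stand for separate cultures is not given in the labels. A p-value here weighs a difference against the spread among 3 arrays per group, pooled over both groups and moderated with the spread of all genes. That spread may therefore be technical, and precision is limited by the number of arrays. In bulk RNA, less RNA per cell and fewer cells of a kind cannot be told apart. Values are log2 intensities after RMA, the usual background correction, normalization and summary for these arrays. They are compared within a gene and not between genes.

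Some facts of the whole series touch every value below. AATF, the targeted gene, read 7.55, 7.75 and 7.55 in the arrays labelled control and 8.53, 8.81 and 8.87 in those labelled siChe-1, a log2 difference of 1.12 ± 0.13 (SE, limma adjusted p = 0.00122). The target was higher and so went against its label, so "lower" means lower under the label siChe-1 than under the label control, and each direction would turn if the labels were exchanged. The array labelled siChe-1 replicate 1 stood apart from its group. Its correlation over all genes with siChe-1 replicates 2 and 3 was 0.984 and 0.986, whereas those 2 arrays correlated at 0.996 with each other and the control arrays at 0.994 to 0.995. The differences of the processome genes and the medians of the gene lists are therefore also given without it. Of 8 epithelial markers, 7 (all but VIL1) lay above the median gene in every array, against 1 of 5 leukocyte markers (TYROBP) and 1 of 6 fibroblast markers (COL1A1). The epithelial markers went both ways, with 5 differences below 0 and 3 above. KRT19 was called lower (-0.59, limma adjusted p = 0.0171), and CDH1 had the highest difference (0.33, limma adjusted p = 0.167). The summed log2 level of the epithelial markers was 72.5 to 72.9 in the control arrays and 71.3 to 71.9 in the siChe-1 arrays. No leukocyte or fibroblast marker was called. The summed log2 level of the leukocyte markers was 17.8 to 17.9 in the control arrays and 18.1 to 18.7 in the siChe-1 arrays, and that of the fibroblast markers 23.8 to 23.9 and 24.2 to 25.5. The median difference of the fibroblast markers was 0.13, and 0.034 without siChe-1 replicate 1. For leukocyte markers these medians were 0.062 and 0.058, and for epithelial markers -0.15 and -0.28. The part of these shifts in the results was not tested.

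The promoter windows of 6 factors are shown first, because a short motif near the start of transcription is a feature that many of these genes share and that the list of names did not use. NOL6 and RRP9 are the called genes, NOP14 and PNO1 were called in addition without siChe-1 replicate 1, FBL is a factor with a difference near 0, and WDR3 has the second largest difference and no E-box. Each window is from RefSeq on GRCh38.p14, runs 5′ to 3′ on the gene's strand from 120 bases before the start to 30 bases after it, and has the E-box CACGTG in capitals.
NOL6, chr9:33473895-33474044, minus strand: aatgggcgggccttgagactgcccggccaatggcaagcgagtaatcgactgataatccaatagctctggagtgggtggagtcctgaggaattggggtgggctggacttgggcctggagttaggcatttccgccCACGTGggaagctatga
RRP9, chr3:51941875-51942024, minus strand: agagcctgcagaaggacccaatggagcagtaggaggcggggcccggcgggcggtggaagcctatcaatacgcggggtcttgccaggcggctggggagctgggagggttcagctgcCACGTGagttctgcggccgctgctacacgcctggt
NOP14, chr4:2963377-2963526, minus strand: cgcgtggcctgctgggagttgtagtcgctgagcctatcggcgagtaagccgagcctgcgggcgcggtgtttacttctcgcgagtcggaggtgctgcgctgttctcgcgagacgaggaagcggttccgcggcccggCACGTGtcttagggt
PNO1, chr2:68157768-68157917, plus strand: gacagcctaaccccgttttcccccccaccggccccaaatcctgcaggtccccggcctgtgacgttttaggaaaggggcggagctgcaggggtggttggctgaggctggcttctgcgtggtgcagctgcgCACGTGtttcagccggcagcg
FBL, chr19:39846350-39846499, minus strand: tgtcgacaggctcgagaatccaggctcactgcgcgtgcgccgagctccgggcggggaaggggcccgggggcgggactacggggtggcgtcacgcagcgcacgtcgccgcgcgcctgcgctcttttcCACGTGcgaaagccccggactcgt
WDR3, chr1:117929619-117929768, plus strand: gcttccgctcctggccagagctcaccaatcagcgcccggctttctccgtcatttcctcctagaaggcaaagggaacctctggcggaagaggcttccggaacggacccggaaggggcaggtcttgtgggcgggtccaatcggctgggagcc

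The E-box, which MYC and related factors can bind, was searched on both strands in the whole RefSeq window of 250 bases before to 50 bases after the start. Of the 35 factors, 31 had a window, and 15 of them (48.4%) held the motif, compared with 8.88% of the 14239 tested genes with a window and 7.43% of all 27305 windows. In 14 of the 15 the motif began within 50 bases of the start, the exception being UTP14A, at position -241. In RRP9 it began at position -5, in PWP2 at base 2, in FBL at base 7, in PNO1 at base 10, in NOL6 at base 14 and in NOP14 at base 16. The ETS motif CCGGAAG was in 10 of the 31 windows (32.3%), against 14.6% of those of the tested genes, and it occurs without an E-box in WDR3, WDR36, KRR1 and UTP3. The core GCATGC of the NRF1 site was in 4 (12.9%, against 7.94%), and 10 windows held none of the 3 motifs. No motif contains another, and a palindrome was counted once. Large-subunit assembly factors, the set of genes most like these, held the E-box in 10 of 29 windows (34.5%). Other processome factors held it in 5 of 15 (33.3%) and pre-40S factors in 2 of 10 (20%). The ETS motif was in 34.5% of the large-subunit windows, in 53.3% of those of other processome factors and in 60% of those of pre-40S factors. It was thus no more frequent in the processome genes (32.3%) than in these lists. A match is a description of the letters and not a site of binding. The 15 measured factors with an E-box had a median log2 difference of -0.48 and ranged from -0.92 in NOL6 to -0.048 in FBL, while the 15 with a window and no E-box had a median of -0.36 and ranged from -0.68 in WDR3 to -0.079 in KRR1. Without siChe-1 replicate 1 these medians were -0.35 and -0.22. Both called genes, NOL6 and RRP9, hold an E-box, but so few calls say little where 15 measured factors hold it and 15 do not. The ranges of these groups of genes overlapped, and the difference between them was not tested.

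**Figure D1:**
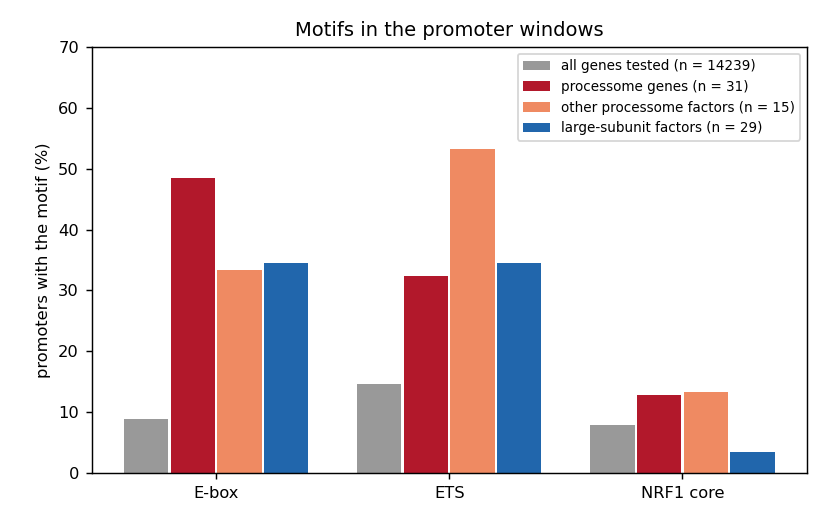
Share of promoter windows (percent, vertical axis from 0) that hold each of 3 motifs on either strand, in all tested genes, the processome genes, other processome factors and large-subunit factors, with the number of windows in the key. The E-box was in 48.4% of the processome windows and 8.88% of those of all tested genes, and the ETS motif in 32.3% and 14.6%. In other processome factors and large-subunit factors the E-box was in 33.3% and 34.5%, and the ETS motif in 53.3% and 34.5%.

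Nearly all processome genes had a difference, siChe-1 minus control, below 0, and few passed the test. NOL6 and RRP9 were called lower, none of the 34 was called higher and 32 did not pass, where a call is a limma Benjamini-Hochberg adjusted p under 0.05 over all 18417 genes. By that rule 3.72% of all genes were called, 2.52% lower and 1.19% higher. All 34 lay above the median gene in every array, whereas the shares over all genes include dim genes. The log2 difference was below 0 in 33 of the 34, against 49.1% of all genes, with a median of -0.43 against 0.0051 over all genes and a range from -0.92 in NOL6 to 0.020 in DCAF13. In 24 of the 34 all siChe-1 arrays lay below all control arrays, which held for 13.3% of all genes, and in 0 did they all lie above (10.6% of all genes). These 24 were 4 of 6 in UTP-A, 5 of 6 in UTP-B, 2 of 3 measured U3 proteins, 3 of 4 in the MPP10 complex, both NOL6 and RRP7A, NOP14 but not NOC4L, DDX10 but not NAT10, 3 of 6 other single factors and 3 of 3 factors that stay with the later particle. At an unadjusted p under 0.05, 22 were lower, against 9.77% of all genes. With the array medians subtracted, which turned the split of all called genes from 67.9% lower to 80% lower, 5 of the 34 were called, all lower, against 3.69% of all genes lower and 0.923% higher.

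**Figure D2:**
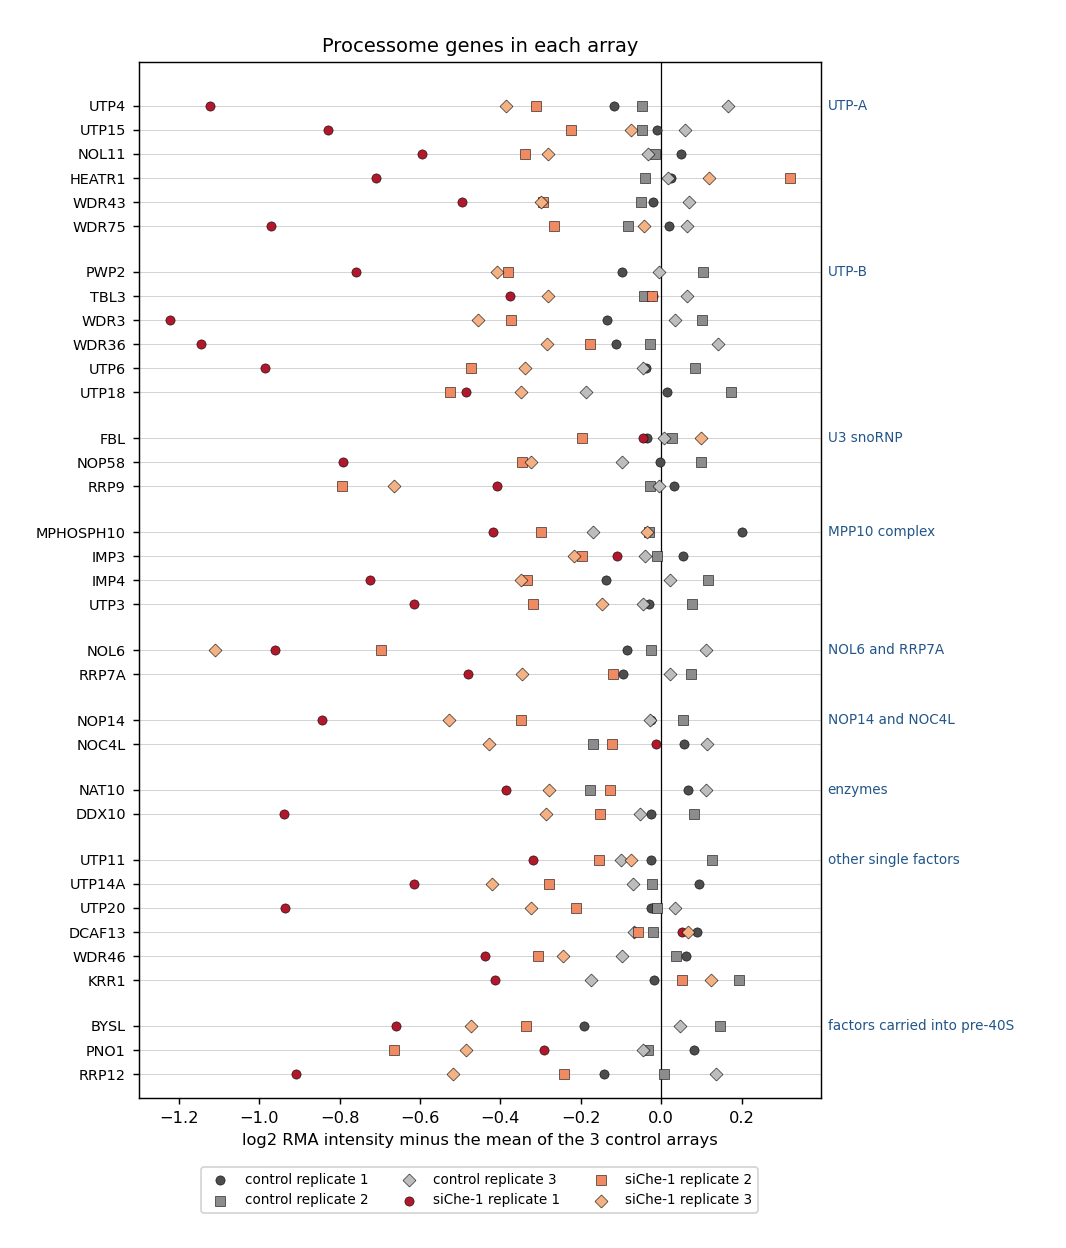
Each of the 34 processome genes in each array, as log2 RMA intensity minus the mean of the 3 control arrays (horizontal axis), ordered by sub-assembly. Grey symbols are control arrays and red or orange symbols siChe-1 arrays; siChe-1 replicate 1 (dark red circles) is the lowest of the 6 arrays in 26 genes, and in NOL6, RRP9, PNO1, UTP18 and IMP3 all siChe-1 arrays are below all control arrays without it being the lowest.

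NOL6, the human counterpart of yeast Utp22 and a partner of RRP7A in the UTP-C part of the assembly, showed the largest difference. It read 7.71, 7.77 and 7.91 in the control arrays and 6.84, 7.10 and 6.69 in the siChe-1 arrays. The groups were separated by more than the range within either of them. The log2 difference was -0.92 ± 0.14 (SE, n = 3 each), or 1.90-fold lower, limma adjusted p = 0.00464, and the 95% confidence interval ran from -1.23 to -0.62. It was called with each single array left out, with adjusted p up to 0.0404. RRP7A read 8.92, 9.09 and 9.04 against 8.53, 8.89 and 8.67, a difference of -0.32 that did not pass (limma adjusted p = 0.241) although the groups did not overlap. The differences without siChe-1 replicate 1 were -0.90 in NOL6 and -0.23 in RRP7A.

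RRP9 binds the U3 RNA as the protein specific to this ribonucleoprotein, next to the box C/D core proteins FBL, NOP56 and NOP58. RRP9 read 8.90, 8.84 and 8.87 in the control arrays, and 8.46, 8.08 and 8.21 in the siChe-1 arrays. Here siChe-1 replicate 1 was the array nearest to the controls, not the farthest. The log2 difference was -0.62 ± 0.13 (SE, n = 3 each), or 1.54-fold lower, with limma adjusted p = 0.0291. The call was lost without any single control array or without siChe-1 replicate 2 or 3 (limma adjusted p between 0.0880 and 0.133), after another quantile normalization (0.0506) and with all probe sets tested (0.0878). Without siChe-1 replicate 1 the difference was -0.73 ± 0.11 (SE, limma adjusted p = 0.00309).

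The other measured U3 proteins differed from RRP9 in how their arrays lay. FBL, the methyltransferase of the box C/D particles, read 9.89, 9.96 and 9.94 in the control arrays and 9.88, 9.73 and 10.03 in the siChe-1 arrays. Its groups overlapped, and the interval of its difference was -0.32 to 0.22. NOP58, a scaffold protein of the same particles, read 10.23, 10.33 and 10.14 against 9.44, 9.89 and 9.91. Its groups did not overlap, siChe-1 replicate 1 was the lowest array, and the difference of -0.49 ± 0.15 (SE, n = 3 each) did not pass (limma adjusted p = 0.108). With siChe-1 replicate 1 left out it was -0.34 in NOP58 and -0.049 in FBL. FBL and NOP58 are partners in all box C/D particles, whereas RRP9 serves U3 alone.

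UTP-A, which binds the first part of the precursor and is tied to transcription by RNA polymerase I, had 0 of 6 genes called. Of all genes 2.52% were called lower, so 0 calls among so few genes say little. The median difference of UTP-A was -0.39, and -0.23 without siChe-1 replicate 1. All 6 were lowest in siChe-1 replicate 1, whose median difference from the mean of siChe-1 replicates 2 and 3 was -0.73. UTP4, mutated in a childhood liver cirrhosis, read 10.82, 10.89 and 11.10 in the control arrays and 9.81, 10.62 and 10.55 in the siChe-1 arrays, a difference of -0.61 ± 0.20 (SE, limma adjusted p = 0.142). Its groups did not overlap, but siChe-1 replicate 1 lay far below the other arrays, and without that array the difference was -0.35. WDR75 had a difference of -0.43, which was -0.16 without siChe-1 replicate 1, and UTP15 one of -0.38, which became -0.15. NOL11 (-0.41) and WDR43 (-0.36) depended less on that array, at -0.31 and -0.30 without it. NOL11 read 8.99, 8.92 and 8.90 against 8.34, 8.60 and 8.66, and WDR43 10.20, 10.16 and 10.29 against 9.72, 9.92 and 9.92. In neither did the groups overlap.

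HEATR1, the largest UTP-A protein, read 9.09, 9.02 and 9.08 in the control arrays and 8.36, 9.39 and 9.18 in the siChe-1 arrays. The siChe-1 arrays thus lay on both sides of the controls, with replicate 1 below all of them and replicates 2 and 3 above all of them. The difference was -0.091 ± 0.23 (SE, limma adjusted p = 0.885) with all arrays and 0.22 ± 0.11 without siChe-1 replicate 1 (limma adjusted p = 0.285, 95% confidence interval -0.032 to 0.47).

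UTP-B, a complex made mostly of WD-repeat proteins that joins after UTP-A, had 0 of 6 genes called, where 2.52% of all genes were called lower. The median difference of UTP-B was -0.53, and -0.40 without siChe-1 replicate 1. WDR3 read 8.58, 8.81 and 8.75 in the control arrays and 7.49, 8.34 and 8.26 in the siChe-1 arrays. Its log2 difference of -0.68 ± 0.21 (SE, n = 3 each) was second to that of NOL6 and did not pass (limma adjusted p = 0.104). It was the gene with the lowest siChe-1 replicate 1, at -1.22 from the control mean, and without that array the difference was -0.42 (limma adjusted p = 0.0560). UTP6 read 8.93, 9.05 and 8.92 against 7.98, 8.49 and 8.63, a difference of -0.60 ± 0.17 (SE, limma adjusted p = 0.0821), with no overlap of the groups, and -0.41 without siChe-1 replicate 1. PWP2 read 8.57, 8.77 and 8.66 against 7.91, 8.28 and 8.26, a difference of -0.52 (limma adjusted p = 0.0718) that was -0.39 without that array. WDR36, linked to glaucoma, had -0.54, which was -0.23 without siChe-1 replicate 1. UTP18 differed from the rest in that siChe-1 replicate 2 was its lowest array, and its difference hardly moved, from -0.45 to -0.44. TBL3 had overlapping groups and a difference of -0.23, and -0.15 without siChe-1 replicate 1.

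The MPP10 complex, whose IMP3 and IMP4 help U3 pair with the precursor, had 0 of 4 genes called, where 2.52% of all genes were called lower. The median difference of this complex was -0.31, and -0.22 without siChe-1 replicate 1. IMP4 read 9.58, 9.83 and 9.74 in the control arrays and 8.99, 9.38 and 9.37 in the siChe-1 arrays, with no overlap and a difference of -0.47 ± 0.14 (SE, limma adjusted p = 0.108). UTP3 had a difference of -0.36, MPHOSPH10 itself -0.25 with overlapping groups, and IMP3 -0.18. IMP3 read 7.21, 7.14 and 7.11 against 7.04, 6.96 and 6.94. These groups did not overlap, although the difference was small and its interval, -0.42 to 0.073, held 0. Without siChe-1 replicate 1 the differences were -0.34 in IMP4, -0.23 in UTP3, -0.17 in MPHOSPH10 and -0.21 in IMP3.

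NOP14 and NOC4L bind each other, and only NOP14 had groups that did not overlap. NOP14 read 9.36, 9.44 and 9.36 in the control arrays and 8.54, 9.04 and 8.86 in the siChe-1 arrays, a difference of -0.57 ± 0.14 (SE, n = 3 each). It was the gene just outside the threshold (limma adjusted p = 0.0572), ahead of PWP2 (0.0718) and PNO1 (0.0761), with RRP9 (0.0291) and NOL6 (0.00464) inside it. NOP14 was called without siChe-1 replicate 1 (-0.44 ± 0.11, SE, limma adjusted p = 0.0394) and without siChe-1 replicate 2 (0.0427), with array medians subtracted (0.0353), and with the dimmest genes left out (0.0453). NOC4L read 7.21, 6.98 and 7.27 against 7.14, 7.03 and 6.73, with overlapping groups and a difference of -0.19 (limma adjusted p = 0.561), and of -0.28 without siChe-1 replicate 1.

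The factors that stay with the particle as it leaves the nucleolus had 0 of 3 genes called, where 2.52% of all genes were called lower. In all 3 every siChe-1 array lay below every control array, which held for 13.3% of all genes. PNO1, an RNA-binding protein, read 8.27, 8.15 and 8.14 in the control arrays and 7.90, 7.53 and 7.70 in the siChe-1 arrays. As in RRP9, siChe-1 replicate 1 was the siChe-1 array nearest to the controls. The difference was -0.48 ± 0.13 (SE, n = 3 each), and without siChe-1 replicate 1 it was -0.58 ± 0.11 and was called (limma adjusted p = 0.0142). BYSL, or bystin, read 9.21, 9.55 and 9.45 against 8.74, 9.06 and 8.93, a difference of -0.49 ± 0.14 (SE, limma adjusted p = 0.0855). RRP12 read 8.26, 8.41 and 8.54 against 7.49, 8.16 and 7.89, a difference of -0.56 (limma adjusted p = 0.110). With siChe-1 replicate 1 left out the differences were -0.41 in BYSL and -0.38 in RRP12.

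Of the enzymes, the helicase DDX10 had a difference of -0.46 that was -0.22 without siChe-1 replicate 1, and the RNA acetyltransferase NAT10 had -0.26 with overlapping groups, and -0.20 without that array. Neither passed. Among 6 further single factors 0 were called, where 2.52% of all genes were called lower. The median of these 6 was -0.26, and -0.19 without siChe-1 replicate 1. UTP14A, which activates a helicase of the assembly, read 7.79, 7.68 and 7.63 in the control arrays and 7.09, 7.42 and 7.28 in the siChe-1 arrays (-0.44 ± 0.13, SE, limma adjusted p = 0.0955). The very large protein UTP20 had -0.49, WDR46 -0.33 and UTP11 -0.18, of which UTP20 and WDR46 had groups that did not overlap. Leaving out siChe-1 replicate 1 gave -0.27 in UTP20, -0.28 in WDR46, -0.11 in UTP11 and -0.35 in UTP14A. KRR1 had overlapping groups and a difference of -0.079, and 0.088 without siChe-1 replicate 1. DCAF13 read 7.72, 7.61 and 7.56 in the control arrays and 7.68, 7.57 and 7.70 in the siChe-1 arrays. Its arrays were interleaved, and its difference of 0.020 had an interval of -0.24 to 0.28, so a change of the size seen in NOL6 or RRP9 lay outside it.

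**Figure D3:**
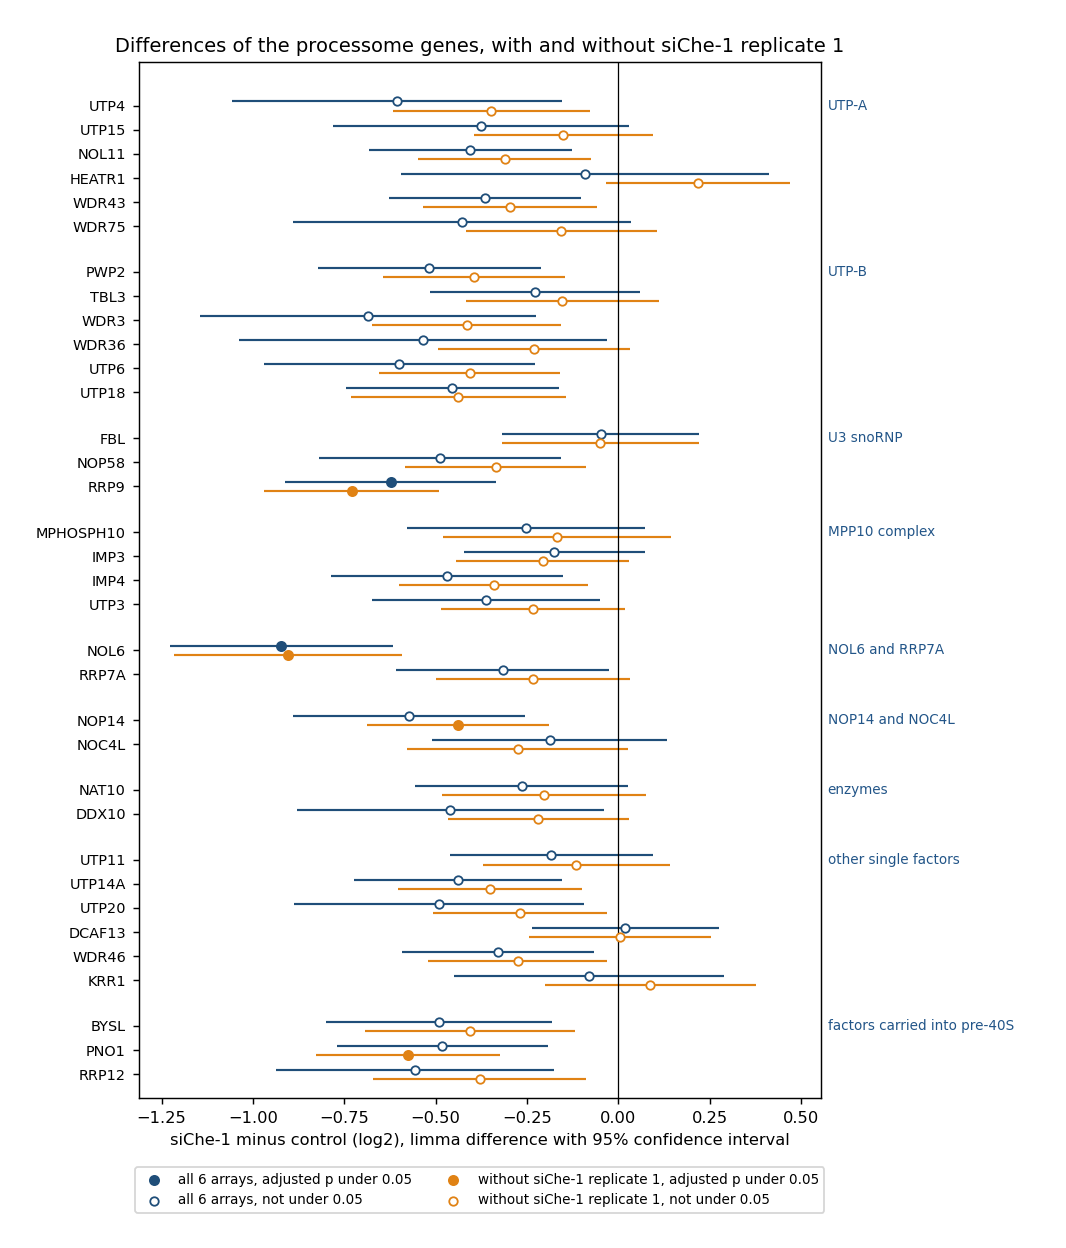
Limma difference of each processome gene, siChe-1 minus control on the log2 scale, with its 95% confidence interval, from all 6 arrays (blue) and without siChe-1 replicate 1 (orange). Filled points have an adjusted p under 0.05: NOL6 and RRP9 with all arrays, and these with NOP14 and PNO1 without siChe-1 replicate 1.

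The siChe-1 arrays did not share the differences equally. The median difference of the processome genes from their control mean was -0.61 in siChe-1 replicate 1, -0.29 in replicate 2 and -0.31 in replicate 3. Over all genes the same medians were 0.015, -0.0031 and -0.010. Replicate 1 was the lowest of the 6 arrays in 26 of the 34, against 26.6% of all genes, and the lowest of its group in the same 26, against 38.7%. It was the highest of its group in RRP9, IMP3, NOC4L and PNO1 and lay between the others in UTP18, FBL, NOL6 and DCAF13. The SD over the siChe-1 arrays had a median of 0.21 over the processome genes and of 0.17 over all genes, and the SD over the control arrays 0.085 and 0.12. The siChe-1 SD was above the control SD in 30 of the 34, and in 62.8% of all genes.

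Without siChe-1 replicate 1 the difference was smaller in size in 27 of the 34 genes, and more genes passed. It was not smaller in HEATR1, FBL, RRP9, IMP3, NOC4L, KRR1 and PNO1. The median was -0.28, the difference was below 0 in 31 of the 34 (51.1% of all genes), and RRP9, NOL6, NOP14 and PNO1 were called lower, against 4.48% of all genes lower and 4.01% higher. Replicates 2 and 3 of siChe-1 lay below all control arrays in 24 of the 34, against 20.5% of all genes. The genes above 0 were HEATR1 (0.22), KRR1 (0.088) and DCAF13 (0.0041), and none of them passed. What sets siChe-1 replicate 1 apart was not tested.

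**Figure D4:**
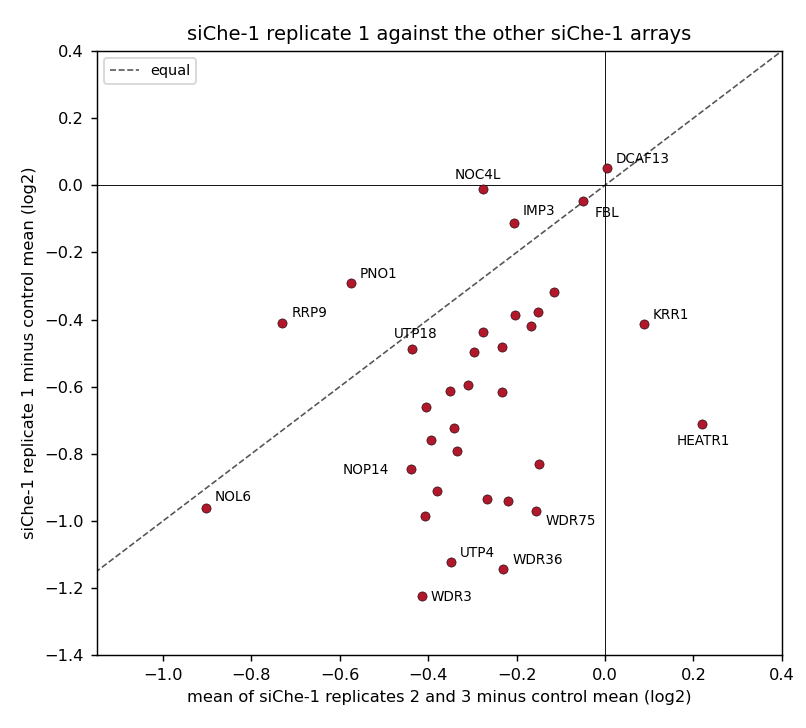
Each processome gene in siChe-1 replicate 1 (vertical axis) against the mean of siChe-1 replicates 2 and 3 (horizontal axis), both as log2 difference from the control mean, with a dashed line of equality. Most genes lie below the line, WDR3 lowest at -1.22, while RRP9, PNO1, IMP3, NOC4L and DCAF13 lie above it, FBL lies almost on it, and HEATR1 and KRR1 have opposite signs on the axes.

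Other genes of the pathway were measured in the same arrays. Of 20 further processome factors 18 were measured, 1 was called lower, 0 higher and 17 did not pass, with a median of -0.32, and the difference was below 0 in 17. Of all genes 2.52% were called lower and 49.1% had a difference below 0. The called gene was DNTTIP2, the human counterpart of yeast Fcf2, which read 8.41, 8.38 and 8.09 in the control arrays and 7.47, 7.47 and 7.40 in the siChe-1 arrays. Its log2 difference was -0.85 ± 0.13 (SE, n = 3 each), or 1.80-fold lower (limma adjusted p = 0.00464), and its groups were far apart. The AATF partners NGDN (-0.59, limma adjusted p = 0.0645) and NOL10 (-0.45, limma adjusted p = 0.188) did not pass, although AATF itself was higher. Without siChe-1 replicate 1 they were -0.43 and -0.27, and the median of these 18 genes was -0.28. RRP36 (-0.57, limma adjusted p = 0.0764) was called without siChe-1 replicate 1, as was NGDN, which makes 3 with DNTTIP2. Without that array 4.48% of all genes were called lower.

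Of 10 factors of the next assembly step, here named pre-40S factors, 1 was called lower, 0 higher and 9 did not pass. The median of these 10 was -0.20, and -0.16 without siChe-1 replicate 1. The gene called was RIOK2, an atypical kinase of cytoplasmic maturation. RIOK2 read 7.76, 7.74 and 7.58 in the control arrays and 6.44, 7.18 and 7.08 in the siChe-1 arrays (-0.79 ± 0.19, SE, limma adjusted p = 0.0463). Its call was lost without any single control array or siChe-1 replicate 3, after another quantile normalization and with all probe sets tested, leaving 0 called. Of 36 large-subunit factors 32 were measured, 5 were called lower (NOP2, RRS1, PES1, FTSJ3 and DDX24), 0 higher and 27 did not pass, with a median of -0.35 (-0.26 without siChe-1 replicate 1) and 29 below 0. That count was 10 without siChe-1 replicate 1, 3 without siChe-1 replicate 3 and 1 (RRS1) without any single control array. In 65.6% of these 32 and in 70.6% of the 34 processome genes all siChe-1 arrays lay below all control arrays, against 13.3% of all genes. Of all genes 2.52% were called lower. These counts and medians are side by side as a description, and the difference between the lists was not tested.

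**Figure D5:**
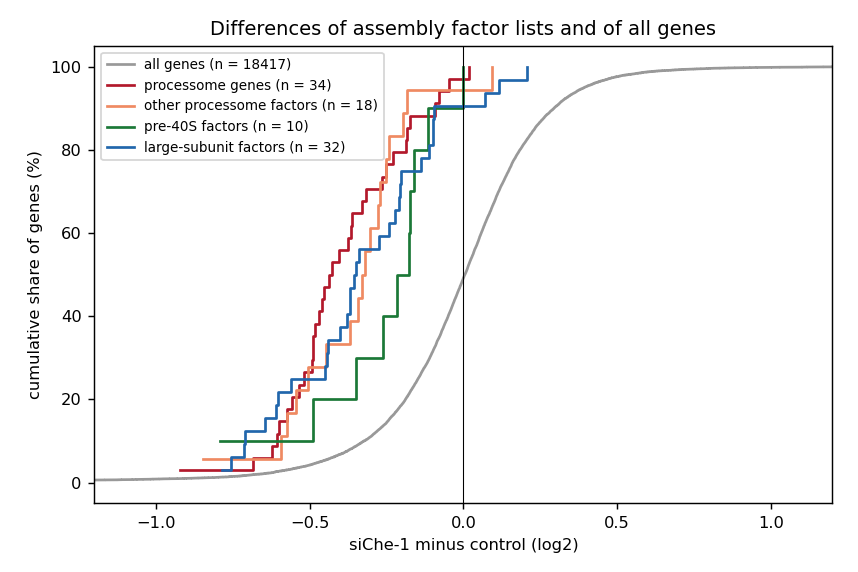
Cumulative share of genes (percent, vertical axis) by log2 difference, siChe-1 minus control (horizontal axis, shown from -1.2 to 1.2), for all genes, the processome genes, other processome factors, pre-40S factors and large-subunit factors. The medians are 0.0051, -0.43, -0.32, -0.20 and -0.35 in that order.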

How the data were processed

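The deposited table holds log2 intensities per probe set for 6 arrays, which the authors made, per the submitters' processing notes, with Affymetrix Expression Console and RMA; version and settings are not given in the sources used here. Array medians lay between 4.95 and 5.05, and genes were not centred. RMA gives all arrays like distributions, which hides any change in the amount of RNA per cell, and it compresses differences of dim genes. Of 33297 probe sets, 19460 were paired with 1 gene symbol by the platform annotation, 1754 with several and 12083 were not named; the probe set with the highest mean was used per gene, leaving 18417 genes.

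The comparison used limma 3.58.1 (R 4.3.3) with lmFit and eBayes on all 6 arrays, with neither covariates nor a filter on dim genes, with Benjamini-Hochberg adjustment over all genes. Errors of differences are moderated SEs. Tested on simulated data for this comparison (18417 genes, 200 changed), the fit recovered 81% of 2-fold and 100% of 4-fold changes. The simulated arrays were drawn independently, with the same SD for a gene in all arrays. None of them stood apart as siChe-1 replicate 1 does, so recovery in the real arrays may differ. Recovery of smaller changes was not tested. Every processome gene differed by less than 2-fold, at most 1.90-fold in NOL6, so these rates do not apply to the genes that did not pass. The members and lists, and the rule naming all members, AATF and called genes of the other lists, were chosen with earlier results of these data known. The 6 promoter windows printed were chosen after their values were seen. Motifs were searched in RefSeq windows; pre-40S factors held the E-box in 2 of 10 and other processome factors in 5 of 15. Alternatives were other scalings, filters, probe set rules, variance models, array weights, a replicate block, a stricter threshold and leaving out each array.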

Additional observations from a re-analysis of the deposited data

How the results depend on the processing

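Of the 34 processome genes, 30 kept the sign of their difference under all 15 alternatives. The other 4 were near 0 and changed sign in some. With array weights HEATR1 was 0.12, FBL 0.035 and KRR1 0.080, and with array medians subtracted DCAF13 was -0.044. With an array left out, HEATR1 ranged from -0.30 to 0.22 (above 0 without siChe-1 replicate 1), FBL from -0.12 to 0.027 (above 0 without siChe-1 replicate 2), KRR1 from -0.18 to 0.088 (above 0 without control replicate 2 or siChe-1 replicate 1) and DCAF13 from -0.014 to 0.064 (below 0 if control replicate 3 or siChe-1 replicate 3 was dropped). The median over the processome genes lay between -0.50 and -0.28, and that over all genes between -0.059 and 0.011. AATF was higher, and past the threshold, in all alternatives.

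The number of processome genes called was 1 after another quantile normalization, with all probe sets tested or at an adjusted p under 0.01, 5 with array medians subtracted, 16 with array weights, and between 1 and 4 with an array left out. NOL6 was called in all of these. Array weights gave siChe-1 replicate 1 a weight of 0.22 against 0.93 to 3.38 for the others. Other processome factors called were 4 with array medians subtracted, 2 with the dimmest 40% of genes left out, 8 with array weights, and 1 to 3 with an array left out. Pre-40S factors called were 0 after another quantile normalization, with all probe sets tested or at an adjusted p under 0.01, 3 with array weights, and 0 to 1 with an array left out. By limma, 3 of the 10 pre-40S factors were lower at an unadjusted p under 0.05, against 9.77% of all genes. This held for 9 of the 18 measured other processome factors and 18 of the 32 measured large-subunit factors. Large-subunit factors called were 8 with array medians subtracted, 1 with all probe sets tested or at an adjusted p under 0.01, 12 with array weights, and 1 to 10 with an array left out. Of all genes, 685 were called, 680 after another quantile normalization, 850 with array medians subtracted and 751 with the dimmest 40% of genes left out. Of these calls 465, 444, 680 and 502 were lower, in that order. With array weights 2865 genes were called, 1517 of them lower. At an adjusted p under 0.01 the number was 261, and with an array left out 272 to 1565. With all probe sets tested, 408 probe sets were called. The causes were not tested, beyond the stricter threshold itself.

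Each group has replicates 1, 2 and 3 in the labels, with no word on what arrays of 1 number share. Same-numbered arrays correlated in their deviations at 0.23, 0.064 and -0.044, so the numbers were not taken to pair the arrays. With the replicate block, 9 processome genes, 4 other processome factors, 1 pre-40S factor, 7 large-subunit factors and 1145 of all genes were called. Only the arrays of replicate 1 correlated best with their own number. The array files were not used here, so background correction could not be varied and no signal over background is known.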
